A study of Mus musculus with 8 samples.

Results

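Oligodendrocyte precursor cells (OPCs) made up 622 of the 40845 nuclei (1.52%) taken from 8 libraries of mouse optic nerve (ON). A nucleus was a droplet barcode with at least 1000 unique molecular identifiers (UMIs, each standing for 1 captured transcript) and less than 5% of them from mitochondrial genes. It was counted as an OPC when at least 4 of 7 genes (Pdgfra, Vcan, Lhfpl3, Megf11, Xylt1, Tnr, Cspg4) had a UMI, when it held fewer than 3 UMIs of St18, fewer than 4 UMIs of Gpr17, Bmp4, Neu4 and Enpp6 together, and no UMI of Dcn. The 7 genes are written as rule genes below. St18 is high in oligodendrocytes (OLs), the next 4 genes mark committed precursors on the way to OLs, and Dcn marks fibroblasts.

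Single-nucleus RNA sequencing was performed on ONs of female mice at postnatal day 120 (P120) on a C57BL/6J background. The 4 control libraries (replicates 1 to 4) came from Piezo2f/f mice without cre, and the 4 libraries labelled cKO (replicates 10 to 13) from Olig2-cre;Piezo2f/f mice, in which cre is meant to delete the floxed part of Piezo2, a mechanically activated cation channel, in cells with a history of Olig2 expression. Both groups thus carry the floxed Piezo2 alleles, and each library pools 6 ONs of 3 mice, so that n counts pools (4 against 4) and not animals. The cre was inserted into the only exon of Olig2, so the cKO mice are also heterozygous for Olig2, and no library of mice with cre alone was analysed here; loss of Piezo2, loss of 1 Olig2 allele and presence of cre cannot be told apart.

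OPCs are the dividing glial cells from which OLs arise during development and, at a slower pace, throughout adult life. They respond to platelet-derived growth factor through the receptor PDGFRα, carry the proteoglycan NG2 on their surface, receive synaptic input from axons and surround themselves with a matrix rich in chondroitin sulfate proteoglycans. When they differentiate, they leave the cell cycle, lose these surface proteins and pass through a short committed stage before they express the myelin genes.

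The number of OPCs per library was 102, 56, 65 and 50 in controls 1 to 4 and 75, 98, 55 and 121 in cKO 10 to 13. Their summed counts reached 195750 to 388614 UMIs per library, with a median of 3148.5 UMIs per OPC over all libraries. Levels are given as CPM, counts per 1000000 UMIs of the summed nuclei of 1 class in 1 library. Library totals over all barcodes ranged from 39628926 to 56541132 UMIs. Barcodes with at least 100 and under 500 UMIs, taken as droplets without a nucleus, had a median of 268 to 409 UMIs per library and give the profile of free RNA. Of the 40845 nuclei, 376 had a barcode that also occurred among the nuclei of another library. This held for 10 OPC barcodes, and none of them was an OPC in the other library.

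The rule genes were high in OPCs by construction, so their levels are a description of the choice and not a finding. Pdgfra, the receptor of platelet-derived growth factor A, had 860 ± 108 CPM in OPCs and 51.1 ± 9.6 CPM in all other nuclei (mean ± SD, n = 8 libraries). Cspg4, which encodes the NG2 core protein, had 296 ± 29.4 CPM against 23.1 ± 3.2 CPM. For Vcan, the chondroitin sulfate proteoglycan versican, the values were 1556 ± 329 and 56.1 ± 10.6 CPM. Over the 7 genes the ratio of OPCs to the other nuclei lay between 12.8 (Cspg4) and 27.7 (Vcan). Of the 5 markers given for the label, Lhfpl3 had a UMI in 98.9% ± 1.02 of OPCs, Vcan in 93.5% ± 4.11, Megf11 in 89.1% ± 3.67, Pdgfra in 87.1% ± 2.59 and Cspg4 in 62.8% ± 6.31 (n = 8 libraries). Genes that the rule did not use had the same pattern. Ptprz1, a receptor phosphatase of OPCs and astrocytes, had 2133 ± 153 CPM in OPCs, 61.8 ± 17.3 in OLs and 697 ± 51.5 in astrocytes. Pcdh15, a protocadherin of OPCs, had 2071 ± 242 CPM in OPCs, 146 ± 17.8 in OLs and 19.0 ± 13.5 in astrocytes. OLs here are nuclei with at least 3 St18 UMIs and astrocytes nuclei with at least 3 of 5 astrocyte genes (Gfap, Aqp4, Slc1a2, Slc4a4, Gpc5), both without the features that define the other classes. By their markers the chosen nuclei as a group were OPCs.

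**Figure D1:**
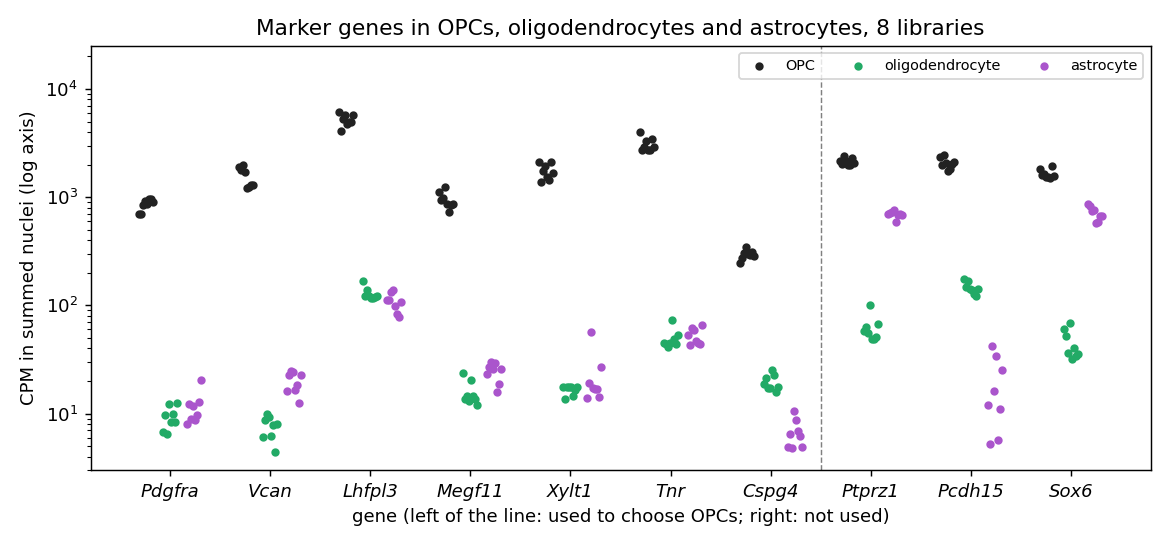
CPM (log axis) of the 7 rule genes and of Ptprz1, Pcdh15 and Sox6 in the summed nuclei of OPCs, OLs and astrocytes, 1 point per library (8 libraries). In all 8 libraries each gene was higher in OPCs than in both other classes; the 7 genes left of the dashed line were used to choose the OPCs.

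The label held less well for the members closest to the limits of the rule. Of the 622 OPCs, 297 had all 7 rule genes, 210 had 6, 61 had 5 and 54 had just 4. Of 1714 nuclei with at least 4 rule genes, 622 were kept as OPCs. The St18 limit alone excluded 200, the Dcn limit alone 216 and the committed-gene limit alone 126. The rest failed more than 1 limit, and all those excluded count among the other nuclei. St18 had no UMI in 529 OPCs, 1 UMI in 75 and 2 in 18, and 20 nuclei with 3 St18 UMIs stayed outside. Another 194 nuclei with 3 rule genes met the other criteria and stayed outside. In the summed counts, Ptprz1 was at 664 CPM in the 54 nuclei with 4 rule genes, at 453 CPM in the nuclei with 3 rule genes and at 2456 CPM in those with all 7. Sox6, a transcription factor of OPCs and astrocytes, was at 555, 443 and 1938 CPM in the same order. Syt1, a synaptic vesicle protein of neurons, ran the other way, with 1204 CPM at 4 rule genes, 806 CPM at 3 and 60.9 CPM at 7. Trpm3, a channel gene that served as a fibroblast marker, was at 1594, 2447 and 54.1 CPM. The sum of the 54 was carried by 11 nuclei with at least 10000 UMIs, which held 222054 of its UMIs. The other 43, with a median of 1731 UMIs, had 1044 CPM of Ptprz1, 1089 of Sox6, 101 of Syt1 and 723 of Trpm3. These values are over nuclei of all libraries together and have no replicate error.

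**Figure D2:**
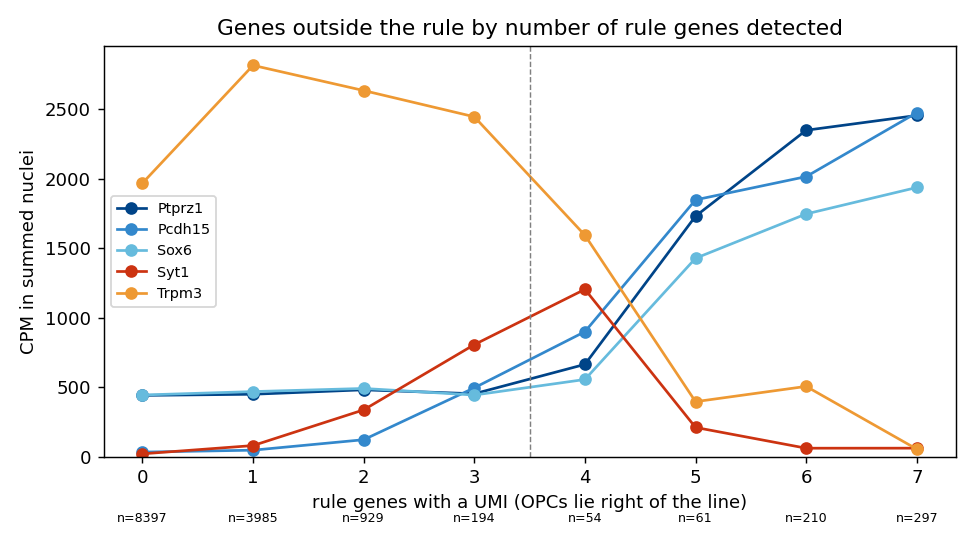
CPM of 5 genes outside the rule (Ptprz1, Pcdh15, Sox6, Syt1 and Trpm3) in nuclei summed over 8 libraries, by the number of rule genes with a UMI, among nuclei that met the St18, committed-gene and Dcn criteria; n is the number of nuclei. OPCs lie right of the dashed line, where Ptprz1 is at 664 CPM at 4 rule genes and 2456 CPM at 7, and Syt1 at 1204 and 60.9 CPM.

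In all, 21 OPCs had 10000 UMIs or more. Their Pdgfra level was 168 CPM against 975 CPM in the other 601 OPCs, and Olig1, a transcription factor of the whole OL lineage, was at 29.0 against 347 CPM. Syt1 was at 1343 against 41.4 CPM. At least 10 UMIs of Syt1 and Snap25 together were found in 10 OPCs, of which 9 had at least 10000 UMIs. The largest member, in control 1, had 63648 UMIs (16.4% of the OPC UMIs of that library), 4 rule genes and 173 UMIs of astrocyte markers. Because these nuclei go against the label, the comparisons of genotypes were repeated on OPCs with at least 5 rule genes and fewer than 10000 UMIs, called the stricter set below.

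With the rule genes included, 2703 genes had at least 50 CPM in the OPC sum of every library. Of these, 252 were at least 5-fold and 547 at least 2-fold higher in OPCs than in the other nuclei. No test was made, since the nuclei were chosen on genes of the same cells. The 20 genes with the highest ratio, leaving out those the rule used, are described by their values. The ratios are to all other nuclei together. Committed precursors among them (4 or more committed-gene UMIs) had higher levels of these genes than OLs and astrocytes. They had 875 ± 216 CPM of Nxph1, 1291 ± 262 of Dscam, 157 ± 69.1 of Myt1 and 123 ± 51.9 of Susd5. This class was mixed. Summed over libraries, Nxph1 was at 1570 CPM in its 126 nuclei with at least 4 rule genes and at 33.8 CPM in its other 111. Nxph1, a secreted neurexophilin, had 1776 ± 185 CPM in OPCs and 56.6 ± 11.4 CPM in other nuclei (ratio 31.4). Dscam, a homophilic adhesion molecule of the immunoglobulin superfamily, had 2201 ± 177 against 91.6 ± 24.8 CPM. Sema5b, a transmembrane semaphorin, had a ratio of 27.6, and Igsf21, another immunoglobulin superfamily protein, one of 24.6. Brinp3 had 1413 ± 122 CPM and a ratio of 24.5.

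Among the same 20 genes, Myt1, a zinc finger factor of neural progenitors and the OL lineage, had 254 ± 30.3 CPM in OPCs and 8.55 ± 2.44 CPM in other nuclei (ratio 29.8). Lgr5, a receptor of R-spondins that strengthens Wnt signals, had 181 ± 45.4 CPM in OPCs against 6.08 CPM (ratio 29.8). The ETS factor Etv4, a target of receptor tyrosine kinase signals, had a ratio of 25.3, as did Neto1, an auxiliary subunit of kainate receptors. Ndst3, an enzyme that modifies heparan sulfate, was 24.6 times and Olfm2, an olfactomedin protein, 24.5 times the level of the other nuclei. Emid1, an extracellular protein with an EMI domain, was at 114 ± 61.4 CPM against 4.63 ± 1.23 CPM (ratio 24.7). Its place among the 20 rested on the cKO libraries, with a ratio of 29.9 there and of 16.3 in the controls, where it ranked 45. Susd5 had 161 ± 27.2 CPM in OPCs and a ratio of 27.2. Of the remaining 7 genes, 6330576A10Rik had the highest ratio of all (41.0), and Gm56750, Gm15584, Gm32509, A930009A15Rik, Gm42948 and Gm29514 had ratios from 26.0 to 31.9.

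The 4 committed genes of the rule had no UMI in 210 OPCs, 1 UMI in 206, 2 in 134 and 3 in 72, and just outside, 46 nuclei with 4 such UMIs and 36 with 5 met the rule in the number of rule genes. Bcas1, a gene of early myelinating OLs that the rule did not use, was at 315, 458, 515 and 738 CPM in OPCs with 0, 1, 2 and 3 committed-gene UMIs and at 876 CPM in the 126 nuclei that had 4 or more and failed no other criterion. Bcas1 was thus higher at each step, which did not hold for the other genes of the committed list given here. Tns3, a tensin, was at 193, 290, 294, 329 and 289 CPM in the same order, and Fyn, a Src family kinase, at 210, 253, 198, 284 and 281 CPM. Tcf7l2, a transcription factor of differentiating OLs, was at 145, 140, 119, 148 and 172 CPM. Pdgfra had 599, 950, 1081, 1072 and 900 CPM. A nucleus with more UMIs can reach a higher committed-gene count, while CPM are relative to all UMIs. Median UMIs per nucleus were 3034.5, 2999, 3342.5 and 3375.5 in the OPC classes and 4346 in the 126 nuclei. The first class also held nuclei with neuronal genes (Syt1 at 523 CPM against 29.2 to 79.8 CPM in the next 3). Piezo2 was at 14.6, 23.8, 23.0 and 26.5 CPM within the OPCs and at 104 CPM in the 126 nuclei outside.

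A small subset of the OPCs carried RNA of mitotic genes. Mki67 or Top2a, both made by dividing cells, had a UMI in 40 OPCs. At least 3 UMIs of 6 genes of the G2 and M phases (Mki67, Top2a, Cenpf, Cenpe, Aspm, Hmmr) were present in 25 OPCs. Nxph1, which the rule did not use, was at 2292 CPM in these 25 against 1739 CPM in the other 597, and Bcas1 at 271 against 456 CPM. Of the rule genes, Pdgfra was at 928 against 853 CPM and Cspg4 at 172 against 298 CPM. The 597 include OPCs with 10000 UMIs or more, which go against the label. All OPCs with fewer than 10000 UMIs had 1926 CPM of Nxph1, 510 of Bcas1, 975 of Pdgfra and 329 of Cspg4. Of the 25 OPCs, 18 came from cKO libraries, and their median was 4998 UMIs against 3126. These sums are over all libraries together and have no replicate error. Mki67 had a UMI in 3.68% ± 2.70 of OPCs per library, in 0.075% ± 0.087 of astrocytes and in 0.524% ± 0.222 of OLs (n = 8 libraries), with median depths per library that averaged 3204, 3169 and 2843 UMIs.

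The targeted gene came first in the comparison of genotypes. Piezo2 (chromosome 18, 63143284 to 63520260, minus strand, build GRCm39) gave 2, 3, 10 and 3 UMIs in the OPC sums of controls 1 to 4 and 5, 13, 2 and 10 UMIs in those of cKO 10 to 13. This corresponded to 18.0 ± 14.9 CPM in controls and 22.3 ± 12.6 CPM in cKO libraries, and the groups overlapped (exact permutation test, two-sided, p = 0.657). A Piezo2 UMI was present in 5.59% ± 3.22 of OPCs, below the 7.98% ± 1.83 of astrocytes and the 60.6% ± 6.45 of OLs, and droplets without a nucleus had 63.3 ± 11.4 CPM in controls and 56.3 ± 13.7 CPM in cKO libraries. When the free RNA profile was subtracted from each OPC sum, 15.3 ± 15.9 and 19.0 ± 13.0 CPM were left. Without the OPCs that held at least 3 UMIs of the myelin genes Mog, Mag and Mobp, the levels were 8.66 ± 7.03 and 17.4 ± 12.3 CPM (exact permutation test, two-sided, p = 0.314). As the share did not exceed that of astrocytes, neither expression nor a change of Piezo2 in OPCs is read from these counts. The levels in the stricter set were 19.7 ± 18.7 and 23.7 ± 9.84 CPM (exact permutation test, two-sided, p = 0.686). In OLs Piezo2 was at 395 ± 51.2 CPM in controls and 498.6 ± 16.1 CPM in cKO libraries. Reads of 3′ ends need not come from the deleted exons, so these values do not test the deletion. Piezo1, the related channel, had 8 UMIs in control and 11 in cKO OPCs, or 7.56 ± 3.19 and 7.92 ± 5.53 CPM (exact permutation test, two-sided, p = 0.971).

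Olig2 and its neighbour Olig1, the basic helix-loop-helix factors of the OL lineage, were measured because cre was inserted into 1 copy of Olig2. Whether transcripts of that changed copy were counted as Olig2 was not tested, so its level need not be that of the intact copy. In OPCs Olig2 (chromosome 16, 91019435 to 91025567, plus strand) had 90.3, 158, 225 and 148 CPM in controls 1 to 4 and 261, 321, 169 and 201 CPM in cKO 10 to 13. The groups overlapped, and the log2 fold change (cKO minus control) of 0.63 ± 0.25 (SE) was not past the threshold (edgeR's quasi-likelihood test, Benjamini-Hochberg adjusted p = 0.737). Olig1 had 196, 272, 229 and 281 CPM in controls and 282, 463, 301 and 347 CPM in cKO libraries, groups that just did not overlap, with a log2 fold change of 0.52 ± 0.19 (adjusted p = 0.679, same test). In the stricter set the log2 fold changes were 0.61 ± 0.22 for Olig2 and 0.45 ± 0.19 for Olig1 (edgeR, adjusted p = 0.416 and 0.517). In OLs the log2 fold changes were 0.68 for Olig2 and 0.65 for Olig1 (edgeR, adjusted p = 0.208 and 0.397).

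The share of OPCs did not differ between genotypes beyond the spread of the libraries. Among all nuclei it was 1.74%, 1.43%, 1.40% and 1.35% in controls 1 to 4 and 1.57%, 1.40%, 1.27% and 1.82% in cKO 10 to 13. The means of 1.48% ± 0.178 and 1.52% ± 0.237 (SD, n = 4 libraries each) differed by 0.0341 percentage points, less than the spread between libraries (p = 0.857, two-sided exact permutation test). The 95% Wilson interval of a single library, which covers counting error only, was 1.44% to 2.11% in control 1 and 0.980% to 1.65% in cKO 12. Per 100 OLs there were 4.52 ± 0.646 OPCs in controls and 4.30 ± 0.993 in cKO libraries (p = 0.714 in the same exact test). Shares in the stricter set were 1.33% ± 0.194 and 1.35% ± 0.253 (exact permutation test, two-sided, p = 0.943), with 4.05 ± 0.612 and 3.83 ± 0.985 OPCs per 100 OLs (p = 0.714). The smallest p that 4 against 4 libraries allow is 0.0286.

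Median UMI counts per OPC were 3274 ± 203 in controls and 3135 ± 254 in cKO libraries (p = 0.429 in the exact permutation test), and 3242 ± 145 and 3140 ± 218 in the stricter set (p = 0.514). The median mitochondrial share per OPC was 0.495% ± 0.0511 in controls and 0.623% ± 0.0389 in cKO libraries, and the 2 groups did not overlap (0.436% to 0.541% against 0.588% to 0.678%). This gave the smallest p the design allows, 0.0286, in the exact two-sided permutation test, and 0.133 after Benjamini-Hochberg adjustment over the 14 tests of this kind. The stricter set had shares of 0.488% ± 0.0511 and 0.605% ± 0.0471 (exact permutation p = 0.0286). In OLs the means were 0.571% and 0.667% (exact permutation p = 0.0286, adjusted p = 0.133), and in astrocytes 0.617% and 0.715% (exact permutation p = 0.314). The part of RNA quality in the gene results below was not tested.

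The share of OPCs with mitotic genes had a higher mean in the cKO libraries, and whether the groups overlapped depended on the measure. Mki67 had a UMI in 0.980%, 3.57%, 0% and 2.0% of OPCs in controls 1 to 4 and in 5.33%, 8.16%, 3.64% and 5.79% in cKO 10 to 13. Every cKO library was above every control library, at 1.64% ± 1.53 against 5.73% ± 1.87 (exact permutation test, two-sided, p = 0.0286, and 0.133 after Benjamini-Hochberg adjustment over 14 tests; this measure was added after its values had been seen). With each OPC thinned to 1000 UMIs the Mki67 shares were 0.446% ± 0.893 and 2.54% ± 1.95, with overlap (exact permutation test, two-sided, p = 0.143), and in the stricter set 1.90% ± 1.83 and 6.13% ± 1.28 without overlap (p = 0.0286). Top2a had a UMI in 3.96% ± 2.08 and 5.86% ± 3.06 of OPCs, with overlap (exact permutation test, two-sided, p = 0.343). OPCs with at least 3 UMIs of the 6 G2 and M genes numbered 2, 3, 0 and 2 in controls 1 to 4 and 4, 8, 1 and 5 in cKO 10 to 13. As shares of OPCs these were 2.83% ± 2.35 and 4.86% ± 2.64, and the groups overlapped (exact permutation test, two-sided, p = 0.343). After each OPC was thinned to 1000 UMIs, at least 1 such UMI was left in 2.77% ± 1.20 of control and 6.23% ± 3.17 of cKO OPCs (exact permutation test, two-sided, p = 0.114). This share in the stricter set was 2.61% ± 1.31 and 6.90% ± 3.35 (exact permutation test, two-sided, p = 0.0571), and that with at least 3 UMIs 2.73% ± 2.12 and 5.37% ± 2.67 (p = 0.143). Over all libraries, thinned OLs had a G2 or M gene UMI in 1.06% ± 0.254 of nuclei and astrocytes in 0.569% ± 0.346. A UMI of any of the 24 cell cycle genes was left in 24.8% ± 5.91 of control and 27.9% ± 7.02 of cKO OPCs (exact permutation test, two-sided, p = 0.486; 50.1% and 55.9% before thinning). In OLs, which do not divide, that share was 62.6% ± 3.55 (89.4% before thinning), so no cycling is read from the whole list. Committed precursors, nuclei with 4 or more committed-gene UMIs, numbered 37.0 ± 16.1 per 100 OPCs in controls and 47.1 ± 23.5 in cKO libraries (exact permutation test, two-sided, p = 0.571). Of these 237 nuclei, 111 had fewer than 4 rule genes and little Pdgfra (46.5 CPM). The other 126 numbered 20.1 ± 11.7 and 25.7 ± 15.2 per 100 OPCs (exact permutation test, two-sided, p = 0.600).

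**Figure D3:**
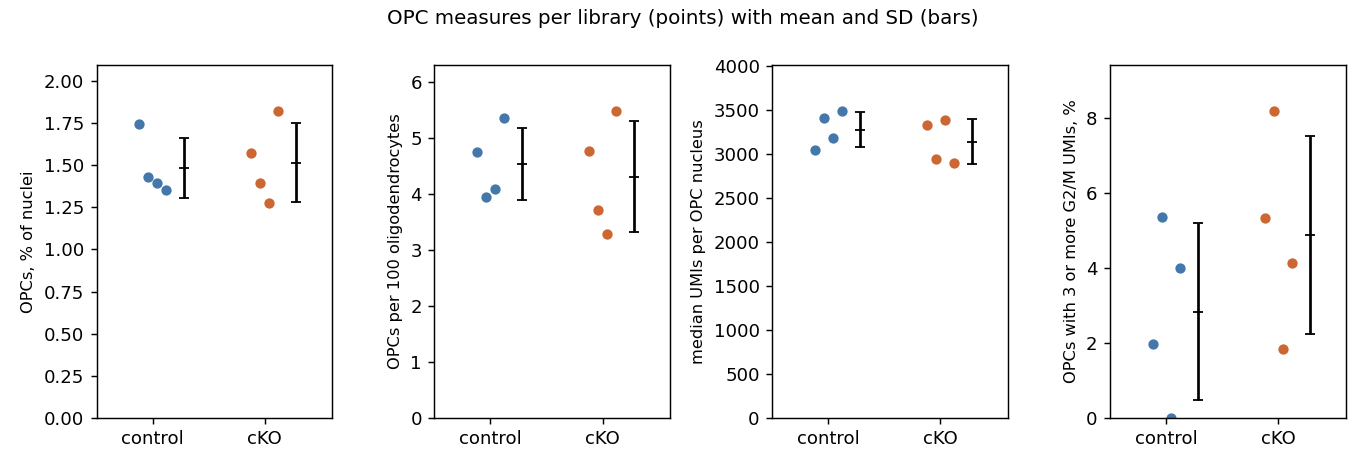
OPCs as percent of nuclei, OPCs per 100 OLs, median UMIs per OPC and percent of OPCs with 3 or more G2 and M gene UMIs, 1 point per library (4 control, 4 cKO), with mean ± SD beside the points. In all 4 measures the ranges of the genotypes overlap, for example 1.35% to 1.74% against 1.27% to 1.82% for the share of nuclei.

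Emid1 was the 1 gene that passed the test between genotypes in OPCs, and it rose in the cKO libraries. The test ran on the summed counts of 5582 genes with edgeR's quasi-likelihood method, and a call needed a log2 fold change beyond 0.5 in either direction besides a Benjamini-Hochberg adjusted p under 0.05, which held for 0.0179% of the genes. Emid1 (chromosome 11, 5056264 to 5102311, minus strand, GRCm39) encodes an extracellular protein with an EMI domain and was 16.3 times as high in OPCs as in other nuclei in the controls alone. It had 69.7, 52.7, 55.3 and 56.2 CPM in controls 1 to 4 and 176, 148, 197 and 160 CPM in cKO 10 to 13. Every cKO library was higher than every control library. The means were 58.5 ± 7.60 and 170 ± 21.3 CPM, and the log2 fold change was 1.49 ± 0.21 (SE; edgeR's quasi-likelihood test, adjusted p = 0.00544).

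The change of Emid1 rested on many nuclei. The counts behind it were 27, 13, 14 and 11 UMIs in controls and 50, 51, 49 and 62 UMIs in cKO libraries, in 53 of 273 control and 139 of 349 cKO OPCs. The OPC with the most Emid1 had 13 UMIs, in cKO 12, and all 7 rule genes. In the stricter set of OPCs the log2 fold change was 1.33 ± 0.23 (edgeR, adjusted p = 0.00102). Other classes had little of the gene, with 1.17 and 1.11 CPM in control and cKO OLs, 5.44 and 5.78 CPM in astrocytes and 1.62 and 3.08 CPM in droplets without a nucleus. Committed precursors had 30.4 ± 20.5 and 67.3 ± 21.4 CPM, but this class was mixed. Summed over all libraries, Emid1 was at 96.3 CPM in its 126 nuclei with at least 4 rule genes and at 0 CPM in its other 111. The genotype difference in OPCs was 1.69 ± 0.50 above that in OLs and 1.46 ± 0.35 above that in astrocytes on the log2 scale, but these differences between classes did not pass the test over all genes (edgeR, adjusted p = 0.937 and 0.629).

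**Figure D4:**
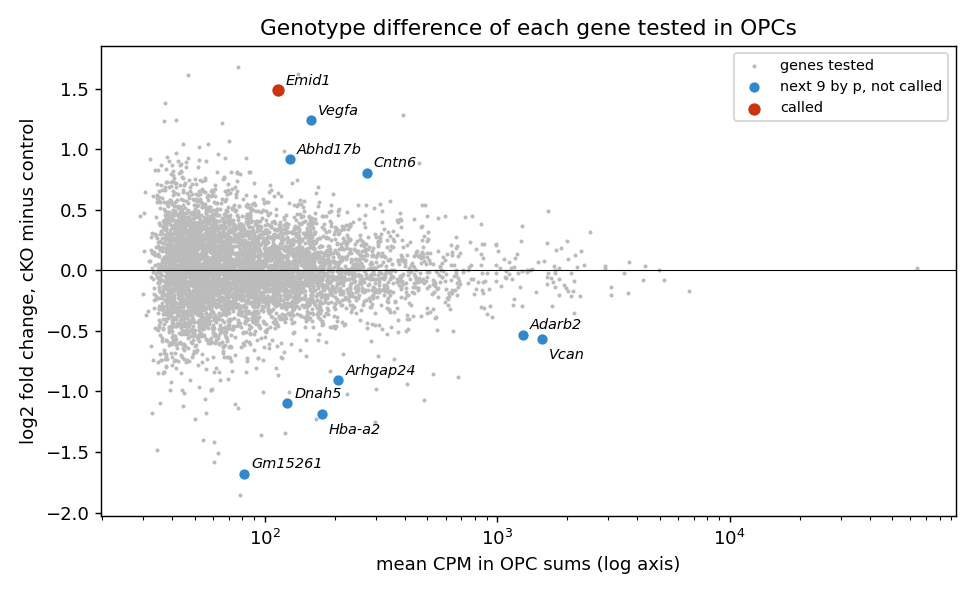
Log2 fold change between genotypes (cKO minus control) of each of the 5582 genes tested in OPCs against its mean CPM in the 8 OPC sums (log axis). Emid1 (red) at 1.49 was called; the next 9 genes by p (blue), from Vegfa at 1.24 to Gm15261 at -1.68, were not.

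At an unadjusted p under 0.05 were 336 of the 5582 genes (6.02%), of which 171 (3.06%) were higher and 165 (2.96%) lower in the cKO libraries. For 199 genes (3.57%) the groups did not overlap. The 9 genes that followed Emid1 by p are described here by their values; none of them was called among all OPCs by edgeR (adjusted p from 0.157 to 0.312). DESeq2 on the same OPCs gave adjusted p = 0.0302 for Gm15261, 0.0355 for Adarb2, 0.0467 for Arhgap24 and for Hba-a2 and 0.00669 for the rule gene Vcan, all lower in the cKO libraries, and values from 0.0577 to 0.473 for the other 4.

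Vcan, the versican gene and the most abundant of these 9, had 1909, 1788, 2004 and 1706 CPM in controls 1 to 4 and 1215, 1251, 1285 and 1287 CPM in cKO 10 to 13. All control libraries were above all cKO libraries. The log2 fold change was -0.57 ± 0.12 (edgeR, adjusted p = 0.157) and -0.65 ± 0.13 in the stricter set (edgeR, adjusted p = 0.00475). As a rule gene, Vcan took part in the choice of the OPCs, still more so in the stricter set, so these values are a description and no call is read from them. A Vcan UMI was present in 259 of 273 control and 325 of 349 cKO OPCs. The gene lies on chromosome 13 (89803431 to 89890814, minus strand). In OLs and astrocytes, which had 6.63 to 22.1 CPM of Vcan, its log2 fold changes were -0.35 and -0.35 (edgeR, adjusted p = 0.649 and 0.836), and the difference between OPCs and either class was not past the threshold (adjusted p = 1 in both).

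Vegfa, vascular endothelial growth factor A, had 54.2, 134, 119 and 71.5 CPM in controls and 331, 156, 189 and 211 CPM in cKO libraries. The groups did not overlap, and cKO 10 was the highest. The log2 fold change was 1.24 ± 0.28 (edgeR, adjusted p = 0.265) and in the stricter set 1.13 ± 0.26 (adjusted p = 0.0284). Adarb2, a brain-specific protein of the RNA-editing deaminase family, had 1450, 1431, 1620 and 1563 CPM in controls and 1141, 953, 1096 and 1037 CPM in cKO libraries. Its groups did not overlap either. The log2 fold change was -0.53 ± 0.13 (edgeR, adjusted p = 0.312) and in the stricter set -0.62 ± 0.13 (adjusted p = 0.0124).

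Arhgap24, a GTPase-activating protein of Rac, had 276, 255, 221 and 332 CPM in controls and 151, 142, 112 and 170 CPM in cKO libraries, without overlap. Its log2 fold change of -0.91 ± 0.19 (edgeR, adjusted p = 0.157) was -1.04 ± 0.20 in the stricter set (adjusted p = 0.00475). Dnah5, a heavy chain of axonemal dynein, had 169 ± 42.5 and 80.0 ± 19.8 CPM, again without overlap, and log2 fold changes of -1.10 ± 0.23 and -1.19 ± 0.23 in the 2 sets (edgeR, adjusted p = 0.157 and 0.00475). Cntn6, a contactin that binds to neuronal surfaces, had 198 ± 44.4 and 351 ± 35.8 CPM, and Abhd17b, an enzyme that removes palmitate from proteins, 86.3 ± 26.2 and 169 ± 23.3 CPM. For both the groups did not overlap, yet neither passed the threshold in the stricter set (edgeR, adjusted p = 0.130 and 0.171). Gm15261, a long noncoding RNA on chromosome X, had 162, 52.7, 138 and 143 CPM in controls and 21.1, 55.0, 44.2 and 36.03 CPM in cKO libraries, so that control 2 lay among the cKO values; 23 of its 63 UMIs in control 1 came from the 1 nucleus with 63648 UMIs.

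**Figure D5:**
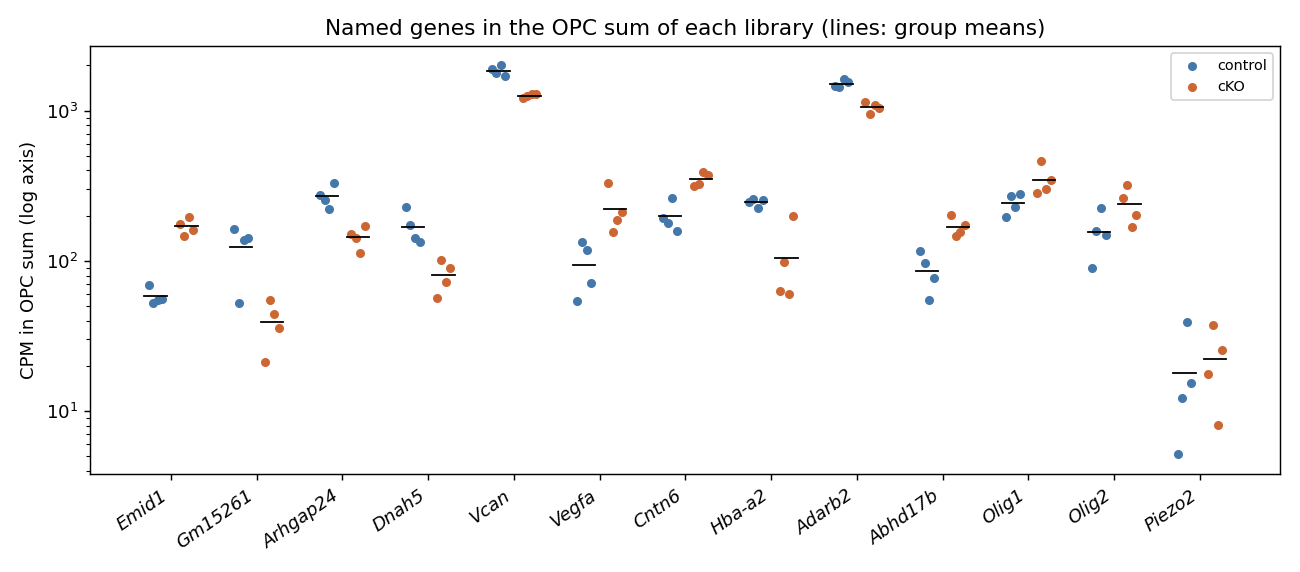
CPM (log axis) of the 10 genes with the smallest p and of Olig1, Olig2 and Piezo2 in the OPC sum of each library, 1 point per library (4 control, 4 cKO), with a line at the mean of each group. The groups do not overlap for Emid1, Arhgap24, Dnah5, Vcan, Vegfa, Cntn6, Hba-a2, Adarb2, Abhd17b and Olig1, and overlap for Gm15261, Olig2 and Piezo2.

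In the stricter set 17 of 4766 genes were past the threshold (0.357%), of which 4 were higher and 13 lower in the cKO libraries. The 13 include the rule gene Vcan, from which no call is read; this set and these names were chosen after the values had been seen. Besides Emid1 and Vegfa, Gm15283 and Gm47283 rose, but for both the groups overlapped. Gm15283 had 137 CPM in control 2 and 125 CPM in cKO 13, and Gm47283 had 171 CPM in control 2 and 143 CPM in cKO 11. Gm47283 is annotated on chromosome Y while all mice were female, so its reads are uncertain in origin. Besides Adarb2, Arhgap24, Dnah5 and Gm15261, the genes outside the rule that fell were Aldh1a1, a retinaldehyde dehydrogenase, Chl1, an adhesion molecule of the L1 family, Schip1, Plekha6, Arhgap6 and 3 haemoglobin genes. Aldh1a1 had 528 ± 169 CPM in controls and 273 ± 103 CPM in cKO libraries (log2 fold change -0.96 ± 0.21, edgeR adjusted p = 0.0224). Its groups overlapped (331 CPM in control 3, 399 CPM in cKO 10), as did those of Schip1 (166 CPM in control 2, 176 CPM in cKO 11). Chl1 had 232 ± 66.6 and 112 ± 15.1 CPM (edgeR, adjusted p = 0.0243). Gm15261 lies within the span of Arhgap6 on the opposite strand, and both fell, with log2 fold changes of -1.97 ± 0.33 and -1.59 ± 0.35 (edgeR, adjusted p = 0.000984 and 0.0224).

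Haemoglobin RNA of red blood cells was lower by mean in the cKO libraries in each class. The summed level of 4 haemoglobin genes in OPCs was 1585 ± 260 CPM in controls and 807 ± 468 CPM in cKO libraries. In OLs it was 2404 against 849 CPM, in astrocytes 2040 against 884 CPM, and in droplets without a nucleus 16740 ± 3529 against 5927 ± 1551 CPM. Hba-a2, an alpha globin and 1 of the 9 genes above, had 247 ± 15.3 and 105 ± 64.4 CPM in OPCs (log2 fold change -1.19 ± 0.27, edgeR adjusted p = 0.265). Its genotype difference in OPCs was 0.17 ± 0.23 from that in OLs and -0.06 ± 0.21 from that in astrocytes on the log2 scale. Pituitary hormone genes (Gh, Prl, Pomc) summed to 23.2 to 992 CPM in control OPCs, with the highest value in control 3, and to 0 to 17.4 CPM in cKO OPCs. In droplets without a nucleus they summed to a mean of 2212 CPM in controls and 25.5 CPM in cKO libraries.

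Markers of other cell types within the OPC sums were compared over whole lists. The 7 astrocyte markers summed to 2013 to 2250 CPM in control and 2213 to 2693 CPM in cKO OPCs, with 5 of 7 higher by mean in the cKO libraries. In the stricter set the ranges were 1952 to 2165 and 2287 to 2606 CPM and did not overlap. The 7 OL markers summed to 2048 to 3106 and 2331 to 4156 CPM, and the 8 fibroblast markers, with Dcn at 0 by the rule, to 408 to 2186 (highest in control 4) and 342 to 1034 CPM. The 6 myeloid markers lay at 174 to 373 and 175 to 229 CPM. The 5 endothelial ones were at 8.11 to 40.9 and 10.6 to 79.8 CPM, and the 5 mural ones at 4.05 to 59.3 and 0 to 49.3 CPM. T cell markers stayed between 0 and 10.3 CPM with no UMI of Cd3e. The 4 neuronal markers summed to 1456 to 2518 and 1666 to 3000 CPM, most of it Rbfox1, which was also at 1508 CPM in OPCs with fewer than 10000 UMIs, and the 4 Schwann cell markers to 41.3 to 112 and 60.2 to 95.1 CPM. The part of these RNAs in the genotype differences was not tested.

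Genes of OPC identity, differentiation and signalling were then followed in lists. In none of the 13 lists was a member called among all OPCs by edgeR (DESeq2 gave an adjusted p under the threshold to the rule gene Vcan), and the median log2 fold change of all 5582 genes was -0.00. The counts of members at an unadjusted p under 0.05 below stand beside the 3.06% higher and 2.96% lower of all genes, and groups without overlap beside 3.57%. The 7 rule genes, which chose the nuclei, are given by their levels alone. Lhfpl3 had 5316 ± 911 CPM in controls and 5079 ± 446 CPM in cKO libraries, Tnr, the matrix protein tenascin-R, 3229 ± 581 and 2967 ± 347 CPM, and Xylt1, the enzyme that starts chondroitin and heparan sulfate chains, 1792 ± 303 and 1692 ± 289 CPM. The 18 other OPC genes were all tested, with 1 lower at an unadjusted p under 0.05 (Sema3d) and a median of -0.03. Among them, Lrrc4c, a netrin-G ligand, had 4238 ± 272 and 4374 ± 259 CPM, Pcdh15 2216 ± 230 and 1926 ± 165 CPM, and Dscam 2173 ± 244 and 2229 ± 108 CPM.

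Of 13 genes of the committed stage 9 were tested, 1 was higher at an unadjusted p under 0.05 (Sirt2, a deacetylase of myelin-forming cells), and the median log2 fold change was 0.12. The list includes Gpr17, Bmp4, Neu4 and Enpp6, whose UMIs the rule limited, as it did those of St18 in the next list. Bcas1 had 416 ± 75.3 CPM in controls and 459 ± 82.7 CPM in cKO libraries, Itpr2, a calcium release channel, 429 ± 47.1 and 382 ± 77.5 CPM, Tns3 247 ± 30.2 and 262 ± 45.0 CPM, and Fyn 202 ± 29.5 and 251 ± 29.6 CPM. Of the 16 OL and myelin genes 15 were tested, with Mobp higher and Plcl1 lower at an unadjusted p under 0.05 and a median of 0.07. Mbp, myelin basic protein, had 415 ± 50.1 and 534 ± 162 CPM in OPCs. For these genes the groups overlapped, apart from Plcl1 (397 ± 88.3 and 276 ± 69.9 CPM).

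Transcription factors of the lineage numbered 21, of which 14 were tested. At an unadjusted p under 0.05, Olig1 and Olig2 were higher and Zeb2 lower, and the median log2 fold change was 0.01. Sox6 had 1656 ± 121 CPM in controls and 1645 ± 210 CPM in cKO libraries, Sox5, its close relative, 908 ± 114 and 860 ± 83.0 CPM, Tcf4 1171 ± 143 and 1204 ± 97.1 CPM, and Zeb2, a repressor that promotes myelination, 1020 ± 40.2 and 837 ± 87.5 CPM. Of 25 growth factor and Notch signalling genes 18 were tested, and none had an unadjusted p under 0.05 in edgeR's test (median 0.07). Pdgfra had 792 ± 112 and 928 ± 47.3 CPM, the neuregulin receptor gene Erbb4 1722 ± 232 and 1782 ± 191 CPM, and the fibroblast growth factor receptor gene Fgfr2 760 ± 192 and 868 ± 214 CPM.

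The receptors and channels through which OPCs sense neuronal activity had no called member. Of 33 transmitter receptor genes 20 were tested, 2 were lower at an unadjusted p under 0.05 (Gria4 and Gabra3), and the median log2 fold change was -0.04. The AMPA receptor genes Gria4 and Gria2 had 1287 ± 109 and 910 ± 73.2 CPM in controls and 1064 ± 121 and 1060 ± 55.1 CPM in cKO libraries; for both the groups did not overlap (edgeR, adjusted p = 0.819 and 0.879). Of 24 other ion channel genes 23 were tested, 2 were higher at an unadjusted p under 0.05 (Kcnip3 and Kcna1), and the median was 0.02. Kcnd2, the potassium channel of A-type currents, had 2877 ± 93.6 and 2971 ± 115 CPM. Kcnip4, which encodes a subunit of such channels, had 617 ± 546 and 477 ± 298 CPM. Of 31 matrix and adhesion genes 26 were tested, with Bcan (brevican) higher and Vcan and Nrcam lower at an unadjusted p under 0.05 and a median of -0.07. Vcan, Cspg4, Tnr and Xylt1 in this list are rule genes that chose the nuclei, so the counts and the median describe that choice in part. Lsamp, an adhesion molecule, had 7047 ± 424 and 6294 ± 475 CPM without overlap (edgeR, adjusted p = 0.834).

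Of 16 mechanosensitive channel and related genes 7 were tested, 1 was higher at an unadjusted p under 0.05 (Pkd1), and the median log2 fold change was 0.05. Trpm7 had 195 ± 22.4 CPM in controls and 188 ± 47.5 CPM in cKO libraries, and Kcnk2, the mechano-gated potassium channel TREK-1, 129 ± 23.4 and 164 ± 27.1 CPM. Of the 24 cell cycle genes 4 were tested, all 4 with a log2 fold change above 0 and 1 at an unadjusted p under 0.05 (Anln). Top2a had 46.4 ± 61.7 and 94.1 ± 73.9 CPM. As a UMI of this list was also left in 62.6% of thinned OLs, no cycling is read from these counts. Of 15 immune genes 7 were tested, with 1 higher at an unadjusted p under 0.05 (Serpina3n, a serine protease inhibitor of reactive glia; median 0.17), and of 13 stress genes 4, with none (median 0.17). C4b, a complement component, had 339 ± 49.6 and 314 ± 77.0 CPM, and Hsp90aa1, a chaperone, 181 ± 39.9 and 178 ± 22.3 CPM. Apart from the rule gene Vcan, which also stood in the matrix list, no list member was called in the stricter set. Below 0 there were the log2 fold changes of 18 of 24 matrix and adhesion genes (15 of 26 among all OPCs), 15 of 18 other OPC genes (12 of 18) and 6 of 7 rule genes (5 of 7), which chose the nuclei. The same held for 14 of 21 ion channel genes (10 of 23) and 12 of 18 transmitter receptor genes (11 of 20), against 2368 of 4766 for all genes (2799 of 5582). In the other lists it held for 8 of 14 transcription factors, 7 of 14 growth factor and Notch genes, 3 of 9 committed-stage and 6 of 15 OL and myelin genes. It also held for 2 of 7 mechanosensitive, 2 of 6 immune, 0 of 4 cell cycle and 0 of 4 stress genes. The committed-stage list includes Gpr17, Bmp4, Neu4 and Enpp6, and the OL and myelin list St18, whose UMIs the rule limited. The matrix and adhesion list also includes the rule genes Vcan, Cspg4, Tnr and Xylt1, and the growth factor and Notch list Pdgfra. Such members took part in the choice of the nuclei, and no test was made of these counts. At an unadjusted p under 0.05 in the stricter set, 2 of the 24 matrix and adhesion genes were higher and 6 lower, Vcan included, against 192 higher and 202 lower of all 4766 genes. In the other lists outside the rule genes, 0 to 3 members were higher and 0 to 3 lower. Counts of 2 or more were 3 higher and 2 lower of 14 transcription factors and 2 higher of 4 cell cycle genes. Lower were also 3 of 18 transmitter receptor genes and 2 of 21 ion channel genes. None of these counts was tested.

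Whether a genotype difference differed between OPCs and another class was asked with an interaction term, with the library as a block because both sums come from the same nuclei suspension. Against OLs, 0 of 14000 genes (0.0%) passed in edgeR's quasi-likelihood test (649 at an unadjusted p under 0.05). For comparison, 9 of 15136 genes (0.0595%) were called between genotypes in OLs. Against astrocytes 2 of 13045 genes passed (0.0153%), Ltbp1 and Col25a1, both with so few UMIs in OPCs that no change within OPCs is read from them. Ltbp1, which binds latent TGF-β in the matrix (chromosome 17, 75312519 to 75699507, plus strand), had 2, 3, 2 and 1 UMIs in control OPCs and 14, 10, 11 and 11 UMIs in cKO OPCs. The groups did not overlap, at 7.58 ± 3.32 and 37.7 ± 10.7 CPM, while astrocytes had 45.4 ± 2.57 and 29.5 ± 7.27 CPM. The difference of log2 fold changes was 2.93 ± 0.43 (edgeR, adjusted p = 0.0131), and 2.67 ± 0.59 against OLs (adjusted p = 0.478). The counts were too low for the test within OPCs, and without control 1 or any 1 of the cKO libraries the adjusted p rose to between 0.0542 and 0.128.

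Col25a1, a membrane collagen (chromosome 3, 129925150 to 130393532, plus strand), had 1, 15, 37 and 2 UMIs in control OPCs and 0, 0, 2 and 1 UMIs in cKO OPCs. The 15 UMIs of control 2 came from 1 nucleus, and 26 of the 37 in control 3 from another with 18990 UMIs and 4 rule genes. The difference of log2 fold changes between OPCs and astrocytes was -5.18 ± 0.74 (edgeR, adjusted p = 0.0131), and in the stricter set -3.85 with an adjusted p of 0.331 and no call. It was not called without any 1 of the cKO libraries either.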

How the data were processed

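Nuclear RNA was captured with the 10x 3′ v3.1 droplet kit. UMIs were counted by the authors using Cell Ranger 7.0.0 and GRCm39, and the deposited values are these raw UMI counts of every barcode, without normalization; the ambient RNA removal, nucleus filters and doublet removal of the study are not part of them. Here no doublet caller was run; doublets were addressed by leaving out OPCs with the top 5% of UMIs, with 3 or more Mog, Mag and Mobp UMIs, or outside the stricter set (at least 5 rule genes and under 10000 UMIs). Members and gene lists were chosen with earlier results of these data known.

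Counts of the OPCs were summed per library (195750 to 388614 UMIs, which limits the precision) and tested with edgeR 4.0.16 (TMM, filterByExpr, glmQLFit and glmQLFTest, genotype alone) in R 4.3.3. Calls needed a log2 fold change beyond 0.5 in either direction and a Benjamini-Hochberg adjusted p under 0.05. Interactions were fitted with OLs or astrocytes and the library as a block. Values per library were compared by exact permutation tests in SciPy 1.17.1, two-sided. Alternatives were DESeq2 1.42.0, other size factors, filters, UMI limits and rule thresholds, thinning to 1000 UMIs, ambient subtraction and leaving out each library. Scripts were tested on simulated data. Intervals are 95% Wilson intervals and cover counting error only. Genes were named by rule: the rule genes, the 10 smallest p-values in OPCs, Piezo1, Piezo2, Olig1 and Olig2, the 20 highest ratios to other nuclei, and per list the 4 members with the most UMIs in control OPCs, of which some are not reported here. List members named for an unadjusted p under 0.05, genes called in the stricter set, and Ltbp1 and Col25a1 were added after their values were seen. Nothing states whether pools were processed on separate days, so any difference in processing between the groups cannot be told apart from genotype. The p-values set the difference between the groups against the spread between pools.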

Additional observations from a re-analysis of the deposited data

Results flagged for a closer look

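The genotype difference in OPCs differed from that in astrocytes for 2 genes in the test of the interaction (edgeR's quasi-likelihood test, Benjamini-Hochberg adjusted p = 0.0131 for each). For Ltbp1 the log2 fold change (cKO minus control) was 2.93 higher in OPCs than in astrocytes. Its 8 UMIs in control and 46 UMIs in cKO OPCs came from 8 and 37 nuclei, with at most 3 UMIs in 1 nucleus. For Col25a1 it was lower by -5.18, with 55 UMIs in 9 control and 3 UMIs in 3 cKO OPCs, and 26 and 15 of the 55 came from 1 nucleus each. Both genes had few UMIs in OPCs, and without any 1 of the cKO libraries 0 genes passed the test.

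In 42 groups of 4 libraries no library stood apart from the other 3 by Dixon's criterion. Those 42 groups did not include the marker sums in OPCs, so the check says nothing about them. Some of these sums had 1 library far from the rest. Pituitary hormone genes were at 992 CPM in control 3 and at 23.2 to 56.8 CPM in the other controls. Endothelial markers were at 79.8 CPM in cKO 13 and at 10.6 to 14.5 CPM in the other cKO libraries.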

How the results depend on the processing

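Emid1 stayed called in all 17 alternatives that tested it (edgeR or DESeq2, adjusted p from 2.8e-06 to 0.0415); after thinning to 1000 UMIs its counts were too low. The number of genes called between genotypes in OPCs, 1, was 6 with DESeq2, 86 without a filter on low counts (41 of them among the genes tested above), 9 with at least 5 rule genes, 13 without the top 5% of UMIs, 5 after thinning and 17 in the stricter set, which was added after seeing the data; leaving out 1 library gave 1 to 4 (3 without control 2, 4 without cKO 13). The interaction with OLs, 0, gave 23 without the filter, 2 in the stricter set and 0 to 2 with a library left out (2 without control 3). The interaction with astrocytes, 2, gave 1 with no replicate block, 35 without the filter, 1 with at least 5 rule genes and 0 to 12 with a library left out (12 without control 3, 1 without control 1, 0 without any 1 cKO library). Replicate numbers are not shared between the genotypes, so the block is the library; the interaction with OLs stayed at 0 with no replicate block. The difference in OPC share turned to -0.216 percentage points with at least 3 rule genes and -0.0161 after thinning, with -0.0674 to 0.122 when a library was left out; the difference in OPCs per 100 OLs, -0.22, was -1.13 with at least 3 rule genes and 0.0281 after thinning, with -0.608 to 0.121 when a library was left out; with a library left out, the difference in the share with a cell cycle gene UMI, 3.11 points, ran from 0.497 (without control 3) to 6.33 (without cKO 12), and that in UMIs per OPC, -138, from -220 (without cKO 12) to -58.3 (without cKO 13); none passed the exact permutation test. The log2 difference of Piezo2 in OPCs, 0.30, ran from -0.075 (without cKO 11) to 1.03 with a library left out. Olig2 stayed between 0.41 and 0.88, not past the threshold. The causes were not tested. Depth limits genes with few UMIs: 5582 of 21017 genes with a UMI in OPCs were tested.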

Other observations

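Nuclei with 4 or more committed-gene UMIs differed by the number of rule genes. The 126 nuclei that failed only the limit on committed genes had 2081 CPM of Ptprz1, 900 CPM of Pdgfra and 876 CPM of Bcas1, and no UMI of Top2a. Another 111 nuclei had 4 or more committed-gene UMIs and fewer than 4 rule genes, with 46.5 CPM of Pdgfra, 0 CPM of Emid1, 5179 CPM of Trpm3, 1265 CPM of Col25a1 and 573 CPM of Piezo2. The class of committed precursors used above thus held nuclei of both kinds, 48 and 44 in controls and 78 and 67 in cKO libraries.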
